A study of Mus musculus with 8 samples.

Results

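Neurotrophins and their receptors were followed across the normal cochlea of 8 mice, using every probe set whose array annotation names 1 gene alone and that gene is Bdnf, Ntf3, Ntrk2, Ntrk3, Ngfr, Sort1, Gfra1 or Ret. Of these 8 genes 7 were measured, by 29 of the 34945 probe sets that name a single gene, which cover 18193 genes in all. Ntf3, which encodes neurotrophin-3, has no such probe set and was not analysed here. All 8 arrays belong to 1 group of normal cochlea of CBA/CaJ, an inbred mouse strain kept as a standard for good hearing. Every mouse received urethane at 300 mg/kg as a fatal anesthetic and was perfused with saline, and the soft tissue of its ears, which took in the modiolus, the organ of Corti and the spiral ligament, was pooled on 1 Affymetrix Mouse 430 2.0 array. The labels give no age, sex or genotype beyond the strain and no second group, so the comparisons are between mice, between probe sets and with the other genes on the same arrays. A mouse number is only a name.

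Neurotrophins are small secreted proteins that keep neurons alive and guide the growth and upkeep of their contacts. They are made as larger precursors, and mature forms act through the Trk receptor kinases, whereas precursors bind the receptor p75 together with sortilin. In the inner ear BDNF from the sensory epithelium acts on TrkB, and neurotrophin-3 acts on TrkC, in the spiral ganglion neurons that carry sound information to the brain. The related GDNF family signals through the kinase RET and a GFR-alpha co-receptor that is anchored in the membrane.

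Promoters are shown for Ntrk2 and Ngfr, because these are the receptors with a probe set that varied between mice with neuronal markers. Each is the stretch of 300 bases from 250 before to 50 after the annotated start of the gene, from RefSeq on build GRCm38.p6, printed 5′ to 3′ on the gene's own strand, with capitals marking GC boxes (GGGCGG or, on the other strand, CCGCCC). The Ngfr stretch is chr11:95587649-95587948 on the minus strand and the Ntrk2 stretch is chr13:58806319-58806618 on the plus strand.
Ngfr: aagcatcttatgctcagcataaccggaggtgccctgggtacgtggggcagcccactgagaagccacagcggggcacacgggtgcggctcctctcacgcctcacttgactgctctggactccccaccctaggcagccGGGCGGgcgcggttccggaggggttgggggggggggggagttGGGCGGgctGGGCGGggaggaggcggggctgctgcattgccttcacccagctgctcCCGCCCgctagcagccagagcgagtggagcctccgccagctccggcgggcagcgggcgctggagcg
Ntrk2: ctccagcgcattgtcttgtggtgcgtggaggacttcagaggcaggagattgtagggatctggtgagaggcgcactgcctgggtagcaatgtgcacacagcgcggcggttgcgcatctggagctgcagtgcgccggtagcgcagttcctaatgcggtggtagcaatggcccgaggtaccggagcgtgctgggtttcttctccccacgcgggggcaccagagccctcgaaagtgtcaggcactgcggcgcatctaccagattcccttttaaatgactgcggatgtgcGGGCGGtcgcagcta
The Ngfr promoter held 4 GC boxes, which are binding motifs of SP1-type factors, and 71.7% of its bases were G or C. The Ntrk2 promoter held 1 GC box, at 35 bases past the start, and 61.3% G or C. Over all 32851 promoters in the RefSeq table the median was 52.7% G or C, and 35.7% held at least 1 GC box. Neither stretch held TATAAA (or TTTATA on the other strand), found in 13.6% of all promoters, or the cAMP response element TGACGTCA, which reads the same on both strands and is found in 1.79%. The 3 motifs share no letters in these stretches, and a match is a description of the sequence only. Of the 8 genes 5 have entries in that table, with 7 starts for Bdnf, 2 for Ntf3 and 1 each for Ntrk2, Ngfr and Gfra1.

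The cochlea gave signals above background for Bdnf, its receptor Ntrk2, the neurotrophin-3 receptor Ntrk3, the sorting receptor Sort1 and the GDNF co-receptor Gfra1 in all 8 mice. The p75 receptor gene Ngfr was above background in 7 mice, and the receptor kinase gene Ret in 5. Thus 5 of 7 measured members were detected, a word used here for genes above background on all 8 arrays, beside 10889 of 18193 genes (59.9%) on the whole array. Background was the 95th percentile, on each array, of 129 probe sets of olfactory and vomeronasal receptors and of genes of unrelated organs, and it lay between 62.0 and 98.2. Values are linear array signals in arbitrary units, read from the brightest probe set of a gene unless another is named. Brightness depends on the probes, so signals of different probe sets are not ranked against each other.

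Bdnf, the TrkB ligand, had signals of 68.4, 133, 149.5, 116.6, 124.7, 155.8, 188.6 and 179.9 in mice 1 to 8, a mean of 140 ± 38.3 (SD, n = 8). It was lowest in mouse 1, where it lay 1.03 times the background of that array, and the other 7 mice lay between 117 and 189. A second probe set, 1422168_a_at, was also lowest in mouse 1, at 67.6, and ranged up to 123.1 in mouse 6, but was above background in 6 mice only. The 2 probe sets gave r = 0.770 across mice, as a description. Ntf5, which encodes the other TrkB ligand neurotrophin-4, was the only further ligand measured; it ranged from 48.1 to 85.3 with a median of 65.0 and was above background in 2 mice.

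**Figure D1:**
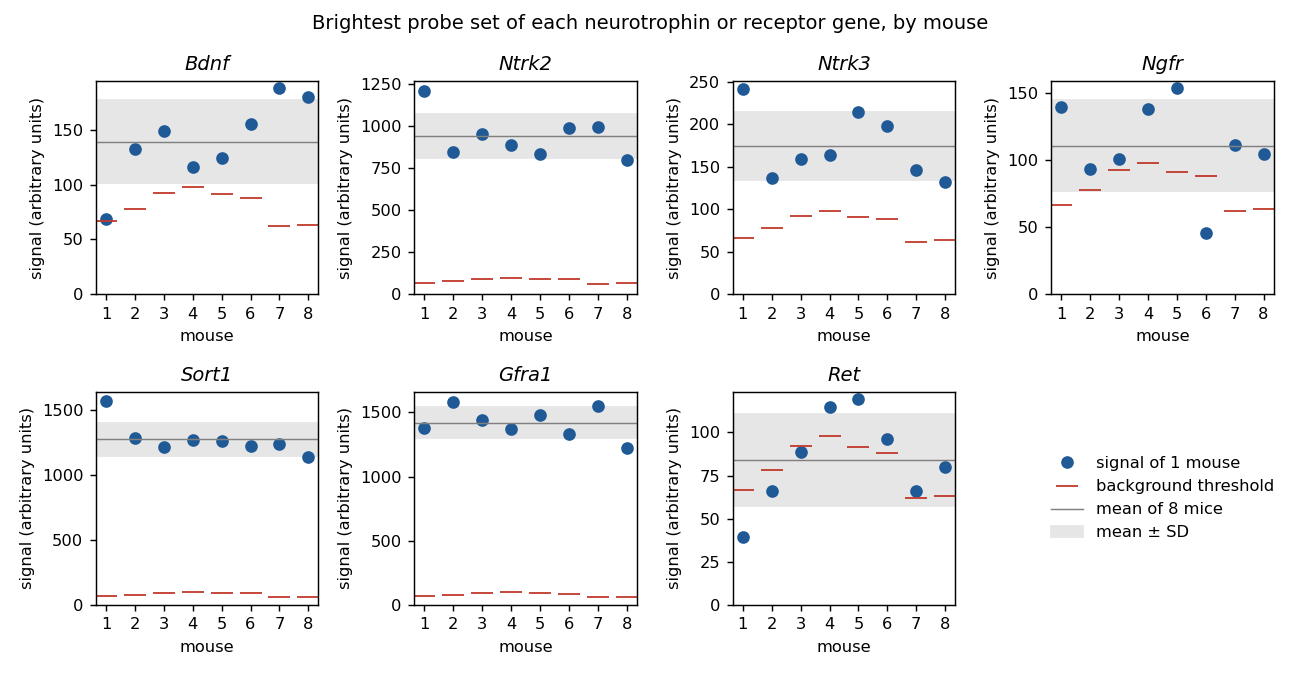
Signal (arbitrary units, linear axis from 0) of the brightest probe set of each measured member against mouse number, with 1 point per mouse, a red dash for the background threshold of that array, a line for the mean and a grey band for mean ± SD (n = 8). Ntrk2, Sort1 and Gfra1 lie at 9.05 times their threshold or more on every array, while Bdnf in mouse 1, Ngfr in mouse 6 and Ret in 3 mice lie near or below theirs.

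Ntrk2, which encodes TrkB, had signals of 1211, 848.3, 952.8, 889.1, 837, 987.1, 992.1 and 799 in mice 1 to 8 (mean 940 ± 131, SD, n = 8). It was highest in mouse 1 and lowest in mouse 8, a ratio of 1.52, and no mouse came below 9.05 times its background. Ntrk3, which encodes TrkC, had signals of 242.2, 136.3, 159.7, 163.7, 215.2, 197.9, 146.9 and 132.3 in mice 1 to 8 (mean 174 ± 39.9, SD, n = 8). Like Ntrk2 it was highest in mouse 1 and lowest in mouse 8. Mouse 1 held the highest signal of 34.6% of all detected genes and the lowest of 24.5%, so being at an extreme there is common on these arrays.

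Ngfr, which encodes p75, had signals of 139.6, 93, 100.7, 138.1, 153.6, 45.3, 111.4 and 104.7 in mice 1 to 8 (mean 111 ± 34.1, SD, n = 8). Mouse 6 stood alone at 0.515 times its background threshold, and the other 7 mice lay between 93.0 and 154. The other 2 Ngfr probe sets were below background on every array, at no more than 22.6, and so do not show whether mouse 6 differs. Sort1, which encodes sortilin, had signals of 1564.9, 1285.3, 1214.9, 1266.6, 1264.6, 1222.2, 1238.6 and 1137 in mice 1 to 8 (mean 1274 ± 126, SD, n = 8). Mouse 1 was highest and the other 7 mice fell within 1137 to 1285.

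Gfra1, the GDNF co-receptor gene, had signals of 1381.5, 1584.8, 1437, 1374.3, 1476.3, 1334.1, 1551.2 and 1218.8 in mice 1 to 8 (mean 1420 ± 119, SD, n = 8). The highest mouse was 1.30 times the lowest, and this was the most even of the 7 genes. Ret, whose product is the signalling partner of that co-receptor, had signals of 39.6, 66.1, 88.4, 115, 119.6, 96, 65.9 and 80.2 in mice 1 to 8 (mean 83.9 ± 26.8, SD, n = 8). It was below background in mice 1, 2 and 3 and never more than slightly above it elsewhere. The second Ret probe set was below background on all arrays, at 3.6 to 29.0.

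Between mice the detected members differed in spread, and Bdnf and Ntrk3 were among the more variable detected genes. Their SD of log2 signal was 0.12 for Gfra1, 0.13 for Sort1, 0.19 for Ntrk2, 0.32 for Ntrk3 and 0.46 for Bdnf, against a median of 0.18 over all detected genes. Of the detected genes 97.1% had a smaller SD than Bdnf and 89.5% a smaller one than Ntrk3. Bdnf and Ntrk3 were also the detected members nearest to background, at a mean of 1.82 and 2.23 times the threshold. Ntrk2, Sort1 and Gfra1 lay at 12.2, 16.5 and 18.3 times. The part of low signal in the spread was not tested. No detected member passed an SD of 0.5, which 241 of 10889 detected genes (2.21%) did. Ngfr (0.55) and Ret (0.52) lay past it but were not detected in all mice.

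Separate probe sets of a receptor gene did not always tell the same story. The 2 brightest probe sets of Ntrk2, 1435196_at and 1420838_at, rose and fell together across mice (r = 0.895, exact permutation p = 0.0027, adjusted p = 0.0405 over 4448 genes with 2 detected probe sets, of which 394 or 8.86% were called). Ntrk2 was the 1 of 4 members so tested that passed, and the count was 0 after quantile normalization or with any single mouse but mouse 4 left out. The brightest pair of Ntrk3 gave r = 0.819 (exact permutation p = 0.0102, adjusted p = 0.0789), that of Gfra1 r = -0.375 (adjusted p = 0.577 by the same exact test). The brightest pair of Sort1 gave r = -0.761 (exact permutation p = 0.0454, adjusted p = 0.171): 1423362_at was highest in mouse 1, whereas 1423363_at was lowest there, at 389.4, against 475.2 to 659.6 in the other mice. With 8 mice the median r over all 4448 such pairs was 0.351. Of the 29 probe sets of the members 13 were above background on all arrays, 18 on at least 4 and 10 on none. Ntrk2 and Ntrk3 have 8 probe sets each, of which 3 and 4 were above background on no array.

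Some Ntrk2 probe sets were lowest in mouse 6, and 1435305_at was so by the widest gap. 1435305_at had signals of 263.2, 235.8, 163.2, 280.6, 198.5, 35.4, 213.3 and 200.8 in mice 1 to 8: mouse 6 was below background at 35.4, and the other 7 mice lay between 163 and 281. 1458622_at was also lowest in mouse 6, at 166.1 against 229.8 to 413.7 elsewhere, while in mouse 6 the brightest Ntrk2 probe set read 987.1, close to its mean. 1437560_at, above background in 4 mice, had its lowest signal of 54.4 in mouse 6 as well. TrkB is made as a full-length kinase and as forms that lack the kinase domain, but which transcript each probe set reads was not analysed here. Ntrk3 showed no such gap: in mouse 6 its 3 detected probe sets read 197.9, 140.5 and 104.3, within the range of the other mice.

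**Figure D2:**
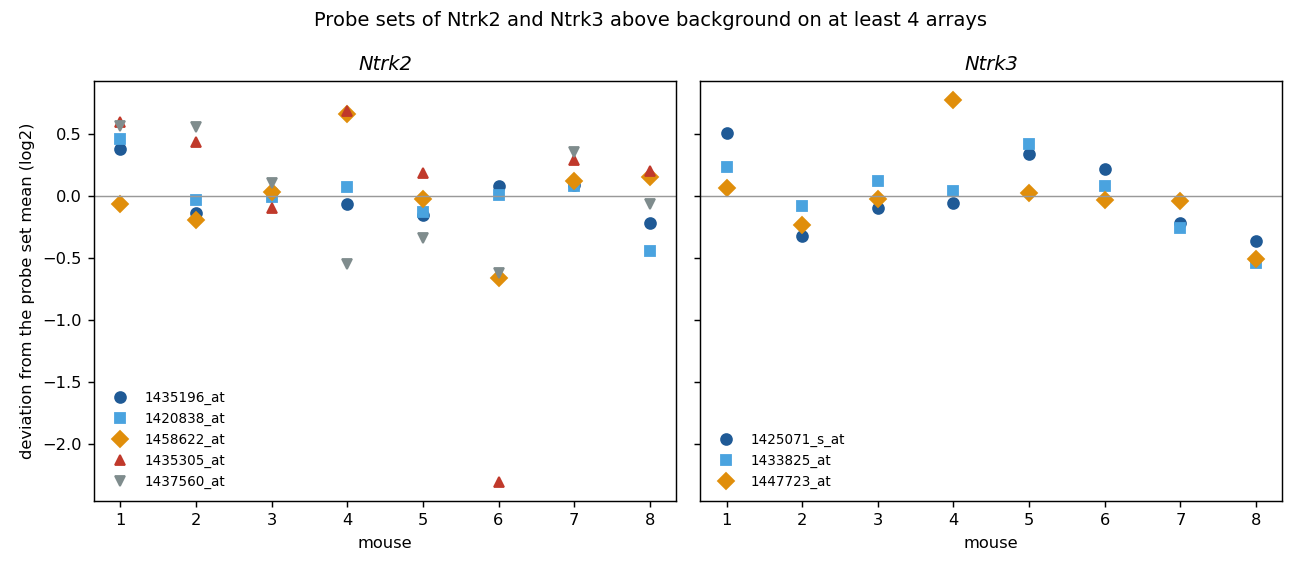
Deviation of each probe set from its own mean over the 8 mice (log2) against mouse number, for the 5 probe sets of Ntrk2 (left) and 3 of Ntrk3 (right) above background on at least 4 arrays, with 1 marker shape per probe set. Ntrk2 1435305_at drops in mouse 6 (35.4, against 163 to 281 in the other mice), where 1435196_at and 1420838_at stay near their means.

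The members were set against markers of the cells that could hold them, since dissected samples may differ in how much of each tissue they contain. For each cell type a score was the mean deviation, in log2, of its detected marker genes from their own means. The spiral ganglion neuron score (19 of 23 measured markers detected, among them the synaptic gene Snap25, the neurofilament gene Nefl and the microtubule regulator gene Stmn3) was -1.06 in mouse 6, 0.52 in mouse 1 and between -0.26 and 0.39 in the other 6. Of its 19 detected markers 18 were lowest in mouse 6, and 12 were highest in mouse 1. The scores of Schwann cells (-0.22 to 0.19), hair cells (-0.26 to 0.22), supporting cells (-0.04 to 0.08) and spiral ligament fibrocytes (-0.07 to 0.08) moved less. The score of bone and marrow, tissues next to the dissected one, moved more: it was 0.95 in mouse 6, 0.87 in mouse 3 and 0.73 in mouse 5, and between -1.03 and 0.04 in the other mice. Mouse 6 thus stood at an end of both the neuronal and the bone and marrow scores, and the part of other tissue in the Ntrk2 and Ngfr signals of that mouse was not tested. In tissue samples fewer cells of a type and less RNA per cell cannot be told apart. Markers above background on no array were Gap43, Prph and Th among the neuronal ones and Atoh1, Cdh23 and Pou4f3 among those of hair cells.

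Ntrk2 1435305_at followed the neuronal score closely. In a limma fit over 20374 probe sets above background on at least 4 arrays its log2 signal rose by 1.89 ± 0.20 (SE) per unit of score (adjusted p = 0.00133), a call that 0.982% of those probe sets shared. Pearson's r was 0.960 (exact permutation p = 0.000372) and Spearman's rho 0.905 (exact permutation p = 0.00456), and Pearson's r was 0.934 without mice 1 and 6, which lay farthest from the median score. Over the 7 mice without mouse 6 it was 0.928 (exact permutation p = 0.00417), but the limma slope was 1.0 and no longer passed (adjusted p = 0.291). The brightest Ntrk2 probe set gave r = 0.003 with the score (exact permutation p = 0.993; limma adjusted p = 0.999). 1458622_at, also lowest in mouse 6, gave r = 0.701 (exact permutation p = 0.081; rho = 0.238, exact permutation p = 0.582) and 0.485 without mice 1 and 6, with a limma adjusted p of 0.421. Whether the relation differs between Ntrk2 probe sets was not tested. The probe set 1435305_at was singled out after its values were seen.

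Ngfr rose with the neuronal score too, but on the strength of mouse 6. Fitted with limma among all probe sets its slope was 1.0 ± 0.19 (SE, adjusted p = 0.041). Pearson's r was 0.889 (exact permutation p = 0.0147), Spearman's rho was 0.524 (exact permutation p = 0.197), and r without mice 1 and 6 was 0.379. Without mouse 6 the slope was 0.59 (limma adjusted p = 0.499). It also missed the threshold without mouse 1, 3, 4, 7 or 8, with limma adjusted p from 0.0569 to 0.0973. In a second fit both the genes and the markers of the score had to be above background on at least 4 arrays, which adds the synaptic gene Syt1 to the score. On that score the slope was 1.06 ± 0.19 (SE, limma adjusted p = 0.0311), and 165 of 11836 genes (1.39%) were called. In the adult cochlea p75 is best known from glia, and Ngfr gave r = 0.347 with the Schwann cell score (exact permutation p = 0.333). That score includes the myelin gene Mbp, which read 9488 in mouse 1, 9287 in mouse 6 and 6030 to 7971 elsewhere. Pmp22, of the same list, was lowest in mouse 6. The part of other tissue in the score was not tested.

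**Figure D3:**
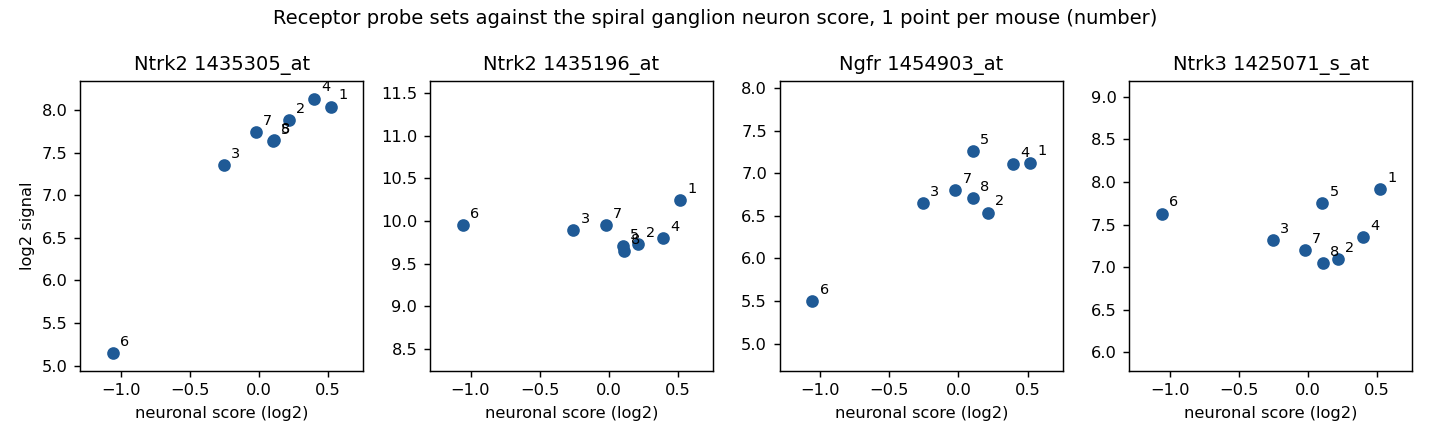
Log2 signal against the spiral ganglion neuron score (mean log2 deviation of 19 markers) for 4 receptor probe sets, with 1 numbered point per mouse and the same height of 3.4 log2 units in each panel. Ntrk2 1435305_at climbs with the score over all mice (r = 0.960), mouse 6 lies apart from the others in Ngfr, and the brightest probe sets of Ntrk2 and Ntrk3 gave r = 0.003 and -0.030.

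Read by their brightest probe sets, none of the 5 detected members followed a cell type score after adjustment over the 10889 detected genes. For the neuronal score limma called 123 genes (1.13%), and 0 members even at an unadjusted p under 0.05 (983 genes). Without mouse 6 only 5 genes were called. For fibrocytes it called 1 gene (0.00918%; 481 unadjusted) and no member. For Schwann cells, hair cells, supporting cells and the central nervous system list it called 0 genes (0%) each, with 1851, 311, 232 and 325 genes at an unadjusted p under 0.05. For each score but the neuronal one, 1 of the 5 members had an unadjusted limma p under 0.05: Bdnf for Schwann cells (0.0284) and fibrocytes (0.048), both with a negative slope, Ntrk3 for hair cells (0.0204) and supporting cells (0.00576), again negative, and Ntrk2 for the central nervous system list (0.0402), positive. The closest relation was that of Ntrk3, which ran against the supporting cell score (r = -0.802, exact permutation p = 0.0141; rho = -0.762, exact permutation p = 0.0368; r = -0.866 without mice 2 and 5), with a limma adjusted p of 0.999. That score ranged from -0.04 to 0.08 only. The other detected Ntrk3 probe sets gave r = -0.497 (1433825_at, exact permutation p = 0.213) and -0.314 (1447723_at, exact permutation p = 0.399) with it. Second probe sets of Bdnf and Sort1 ran against the neuronal score (1422168_a_at, r = -0.814, exact permutation p = 0.00672; 1423363_at, r = -0.782, exact permutation p = 0.0305), with limma adjusted p of 0.246 and 0.373 over all probe sets.

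Markers of the central nervous system also varied between mice, and TrkB is abundant in brain. Of 18 such markers 5 were detected and 9 were above background on no array, among them Olig2 and Opalin. The score rests on the 5 detected markers, Cbln1, Pcp2, Gfap, Zic1 and Nkx6-2. It was 0.46 in mice 1 and 6 and from -0.43 to 0.13 in the others. Gfap was highest in mouse 6 (1292), with 805 in mouse 1. Cbln1 and Nkx6-2 were highest in mouse 1, Zic1 in mouse 4 and Pcp2 in mouse 7. Mobp, Mog, Ermn and Olig1, given next, are not in the score. Among genes of oligodendrocytes, the myelin-forming cells of the brain, Mobp read 2331 in mouse 1 and 2262 in mouse 6, with a median of 164. Mog read 314.5 and 356 in these mice (median 22.8), Ermn 171 and 153 (median 22.3) and Olig1 87.0 and 89.4 (median 17.9), and those 3 genes were above background in no other mouse. The brightest Ntrk2 probe set gave r = 0.712 with this score (exact permutation p = 0.0428; rho = 0.643, exact permutation p = 0.0962), 0.290 without mice 1 and 6, and a limma adjusted p of 0.999. Mouse 1, where that probe set was highest, is one of the mice with these brain markers, and their part in the Ntrk2 signal was not tested.

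Read by their brightest probe sets, Bdnf and Sort1 ran in opposite directions across mice. Bdnf fell by 3.19 ± 0.48 (SE) on the log2 scale per log2 unit of Sort1 (limma adjusted p = 0.00751), with r = -0.925 (exact permutation p = 0.00506), rho = -0.762 (exact permutation p = 0.0368) and r = -0.621 without mice 1 and 8. Limma called 2443 of the other detected genes on Sort1 (22.4%) and 1070 on Bdnf (9.83%), so a call on Sort1 was common over the 8 mice. Without mouse 1 it called 0 genes on either, against 2084 on Sort1 and 188 on Bdnf without mouse 6. The reverse fit, Sort1 on Bdnf, had an adjusted p of 0.0529. Mouse 1 held the lowest Bdnf and the highest Sort1; without it limma gave a slope of -3.06 with an adjusted p of 0.403. The second Sort1 probe set, 1423363_at, ran the other way with Bdnf (r = 0.757, exact permutation p = 0.038, and rho = 0.619, exact permutation p = 0.115). Without mouse 1 this r was 0.291. The third, 1450955_s_at, gave r = -0.338 (exact permutation p = 0.445) and r = -0.080 without mouse 1. It gave r = -0.786 without mice 4 and 6, which lay farthest from its median. Over all 8 mice, a negative r with an exact permutation p under 0.05 was thus seen with the brightest Sort1 probe set only. The second Bdnf probe set, 1422168_a_at, gave r = -0.729 with it (exact permutation p = 0.0219). With 1423363_at and 1450955_s_at it gave r = 0.714 and -0.113. The values of these 2 Sort1 probe sets depended on which mice were left out. The 20 fits of one detected member on another gave this 1 call. On Ntrk2, Ntrk3 and Gfra1 limma called 0 genes, with 1265, 1348 and 321 at an unadjusted p under 0.05.

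**Figure D4:**
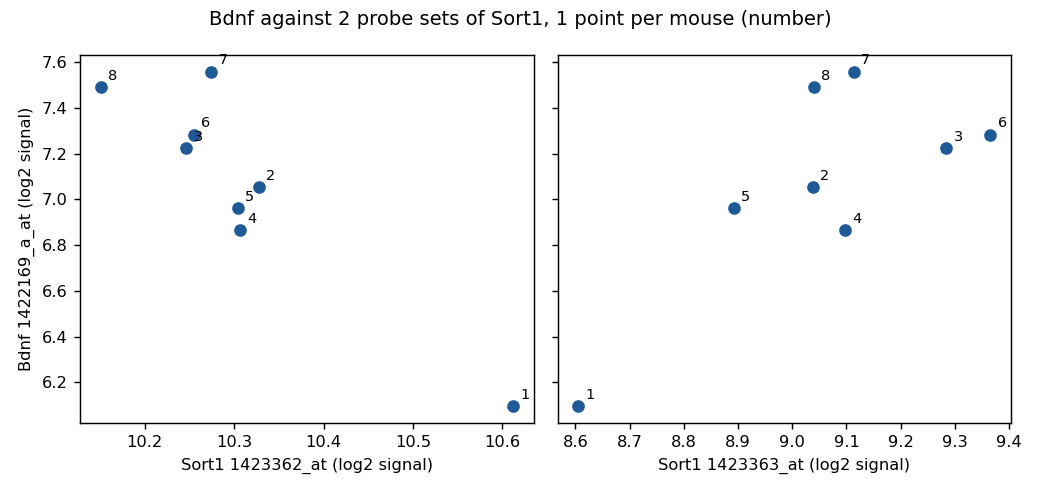
Log2 signal of Bdnf against log2 signal of the Sort1 probe sets 1423362_at (left) and 1423363_at (right), with 1 numbered point per mouse. The relation is negative on the left (r = -0.925) and positive on the right (r = 0.757), and mouse 1 lies apart in both panels.

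The genes most like each member across the 8 mice are given as a description, by Pearson's r over detected genes. For Bdnf they were Pcdhb20 (0.99), Zbtb26 (0.98), Mynn (0.98) and Prpf38b (0.98). For Ntrk2 they were Ildr2 (0.96), Hcfc1r1 (0.95), Sppl2b (0.94) and Ccndbp1 (0.93), and for Ntrk3 they were Pbxip1 (0.96), Adam12 (0.95), Nupl2 (0.95) and Sfrp4 (0.95). For Sort1 they were Fibp, Prom2, Irgq and Pnpla6 (all 0.99), and for Gfra1 Fbxw5 (0.96), Rsl1d1 (0.96), Epb41l4a (0.94) and Tmem230 (0.92). Ngfr was most like Mtfp1 (0.97), Abhd6 (0.96), Cadps (0.95) and Napb (0.94), of which Cadps and Napb act in vesicle release. Ret was most like Klf15 (0.97), Pgap2 (0.95), Stradb (0.95) and Ep400 (0.95). In mouse 1 Bdnf and Ret were lowest and Ntrk2, Ntrk3 and Sort1 highest, and Ngfr was lowest in mouse 6. How far these r values rest on a single mouse was not tested.

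Beyond the members, lists of the pathway held 80 further measured genes, of which 54 were detected and 19 were above background in no mouse. Of all 18193 genes 59.9% were detected, and the counts by list that follow are to be read beside that share. Among the receptors and their partners 5 of 7 were detected. Kidins220, a scaffold that binds Trk receptors and p75, ranged from 3317 to 4315 with a median of 3723. Sorl1, Sorcs2 and Sorcs3, relatives of sortilin, had medians of 7177, 196 and 210, whereas Sorcs1 reached no more than 30.1. Lingo1, a partner of p75, ranged from 130 to 291 and was highest in mouse 4. All of these but Sorcs1 were above background in every mouse.

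In the GDNF family 3 of 9 further genes were detected. These were Gfra4, a co-receptor (96.1 to 186), Ncam1, an alternative partner of GDNF (2935 to 3517), and Sdc3, a syndecan that binds GDNF (672 to 1102). Gdnf itself was above background in 3 mice, at 51.9 to 85.8, and the related ligand genes Artn, Nrtn and Pspn in none. Gfra2 was above background in 1 mouse and Gfra3 in none. Thus the brightest Gfra1 probe set lay at 14.0 times background or more in every mouse. Its other probe sets, 1450440_at and 1421973_at, were above background in every mouse too, at no less than 1.54 and 1.37 times. The Ret kinase and the GDNF ligands were near or below background. These ratios depend on the probes and do not rank the genes.

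Of the genes listed for the processing of neurotrophin precursors 7 of 10 were detected. Furin, the main intracellular convertase, ranged from 3695 to 4644, Pcsk6 from 1253 to 1634 and the tissue plasminogen activator gene Plat from 1181 to 1495. Mmp9, a secreted protease that can cleave proBDNF, varied most of these, from 113 to 430 (SD 0.80 log2), and was highest in mouse 5. The bone and marrow score, whose genes include those of neutrophils that carry this protease, was 0.73 in mouse 5; its part in the Mmp9 signal was not tested. Mmp3, Mmp7 and Plau were above background in no mouse.

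Of the genes that act with or cleave p75, 8 of 9 were detected. Adam17, the sheddase of p75, ranged from 1441 to 1831, and Maged1, which binds its cytoplasmic part, from 2153 to 3210, lowest in mouse 6 and highest in mouse 1. Bex1, another interactor, ranged from 1260 to 1904. Of the adaptors of Trk and RET signalling 14 of 20 were detected, among them Shc1 (647 to 757), Grb2 (2583 to 3838), Gab1 (3702 to 4133) and Plcg1, a phospholipase that docks on active Trk receptors (4604 to 4802). The SD of Plcg1 was 0.02 log2. Shc2 and Shc3, the Shc adaptors best known from neurons, were above background in no mouse.

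Of genes that respond to or regulate neurotrophins 8 of 11 were detected. Creb1, the factor downstream of TrkB, ranged from 1278 to 1769, and Rest, a repressor of neuronal genes, from 2392 to 2789. The early response genes Egr1 (1704 to 3164) and Nr4a1 (138 to 564) were above background in every mouse, whereas Arc, Npas4 and Vgf, known for induction by BDNF in brain neurons, were in none. Among other neurotrophic ligands and receptors 9 of 13 were detected, among them pleiotrophin (Ptn, 4455 in mouse 1 to 10146 in mouse 8), the cytokine receptor genes Lifr (2474 to 3400) and Il6st (2430 to 3192) and the glial neuregulin receptor gene Erbb3 (1975 to 2559). Nrg1, the neuregulin that axons present to Schwann cells, was above background in 5 mice and lowest in mouse 6, at 38.7, with a median of 89.3. Erbb4, Alk and Lif were above background in no mouse.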

How the data were processed

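Total RNA of cochlear soft tissue was extracted with TRIZOL and a spin column, amplified and labelled with biotin (Ovation system) and hybridised to 1 array for each of 8 mice, per the labels' protocols. The authors deposited linear intensities per probe set made by MAS5, as listed among the submitters' processing notes with no version. Trimmed by 2% at either end, the deposited intensities averaged 500.0 on every array. Of 45101 probe sets 34945 name 1 gene, 932 several and 9224 none in the platform annotation; 34741 matched a current gene by Entrez identifier and 0 changed symbol. Arrays correlated at 0.945 to 0.960 over 28 pairs, and 0 pairs were identical. The number of arrays limits the precision, and no scan date or batch was given.

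Each gene's value is that of its brightest probe set by mean signal (_x_at only where it has no other), as log2 with signals under 1 set to 1. The background came from 109 genes. Slopes on scores and on members were fitted with limma 3.58.1 (R 4.3.3; lmFit, eBayes) over all detected genes and adjusted by Benjamini-Hochberg with 0.05 as threshold. Correlations were tested by exact permutation over all 40320 pairings of the mice, two-sided (5040 with 7 mice), in Python 3.11.15 with numpy 2.4.6 and scipy 1.17.1; p-values of single correlations are unadjusted. For each of the 7 members 6 scores were tried, and 20 fits between detected members. Mice are the units, and the p-values take in differences of the assay. The fits were tested on simulated data with known slopes. Members and lists were chosen with earlier results of these data known. All 8 members and their probe sets are named; of each pathway list detected genes may be named, of marker lists the brightest 3 and those not above background, and for each member the 4 most similar genes (those with only a clone or model name left out). Undetected pathway genes, Mog, Mobp, Ermn, Olig1, Syt1, the genes most like Ngfr and Ret, and Ntrk2 1435305_at were singled out after their values were seen. Zic1 and Nkx6-2 are named to give the full content of the central nervous system score.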

Additional observations from a re-analysis of the deposited data

Results flagged for a closer look

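Among 18 member probe sets and 7 cell type scores (25 in all) tested by Dixon's ratio (the gap of the lowest or highest mouse to the next one, over the whole range on the log2 scale), 4 passed the 95% critical value for 8 mice. About 1 in 20 would pass if values followed a normal distribution. The share of all probe sets on these arrays that would pass was not worked out, so the 4 are a description only. Ntrk2 1435305_at was lowest in mouse 6 with a ratio of 0.738. Ngfr 1454903_at was lowest in the same mouse with a ratio of 0.589. Sort1 1423362_at was highest in mouse 1 with a ratio of 0.616. Ntrk3 1447723_at was highest in mouse 4, at 182.4 against 112 in mouse 1, the next highest, with a ratio of 0.549.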

How the results depend on the processing

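The count of 5 detected members became 2 (Sort1 and Gfra1) when all probe sets of a gene were averaged and 3 (Ntrk2, Sort1 and Gfra1) with the 99th percentile as background. Ret joined with the 90th percentile or with receptors alone as background, and Ngfr joined without mouse 6. Alternatives chosen after seeing the data took genes above background on at least 4 of 8 arrays, which raised the count of members with an SD over 0.5 from 0 to 2 and that of members following the neuronal score from 0 to 1 (Ngfr), and every probe set on its own, which gave 2 (Ntrk2 and Ngfr). The count of members whose probe sets agreed was 1, but 0 after quantile normalization and 0 to 1 when 1 mouse was left out (0 without any mouse but mouse 4). The count of member pairs called was 1, but 2 after quantile normalization, 0 with the mean of all probe sets and 0 to 2 when 1 mouse was left out (0 without mouse 1, 2 without mouse 4 or 7). The slope of Ntrk2 1435305_at on the neuronal score ranged from 1.0 to 2.05 when 1 mouse was left out and missed the threshold without mouse 6 alone. That of Ngfr ranged from 0.59 to 1.06 and passed without mouse 2 or 5 alone; with log2 of the signal plus 32 it was 0.75 (limma adjusted p = 0.0586). Counts for the other 5 scores stayed at 0 under all 17 alternatives run. No slope named here changed sign. Ngfr and Ret, and to a lesser degree Bdnf and Ntrk3, lie near background, which limits what their differences between mice can show. No paired analysis was possible because the labels give 1 group.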
